A study of Mus musculus with 2 samples.

Results

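The genes described here are 8 genes that mark homeostatic microglia, Tmem119, Siglech, Cx3cr1, Fcrls, Olfml3, Sparc, Selplg and Cst3. They were chosen by name, as signature genes of the homeostatic state, and make 8 of the 32285 genes in the count tables. All 8 were read in the tables of 8 mice, per mouse, per cell and per pair of genes. Microglia are the resident macrophages of the brain parenchyma. In the undisturbed brain they survey the tissue and hold a characteristic set of surface receptors and secreted proteins, and this set falls when they turn reactive after injury, in neurodegeneration or in ageing. Of the 8 genes, 5 code for proteins of the cell surface (Tmem119, Siglech, Cx3cr1, Fcrls, Selplg) and the other 3 for secreted proteins (Olfml3, Sparc, Cst3).

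The study asked how loss of the Arp2/3 complex, which nucleates branched actin filaments, changes microglia. CD45+ cells were sorted from brains of 12-week-old mice, tagged per mouse with cell multiplexing oligonucleotides (CMO), pooled and sequenced as a single 3′ library of unique molecular identifiers (UMIs). The 4 control mice were Arpc4 fl/fl littermates without Cre, and the 4 knockout mice were Tg(Cx3cr1-Cre) Arpc4 fl/fl (Arpc4ΔCx3cr1, labelled KO), so that both groups carried the floxed alleles. Cre was under the Cx3cr1 promoter, which is also active in CNS-associated macrophages (CAMs) and in monocytes, and since no control among these 8 mice carried Cre, the transgene and the deletion cannot be told apart in these data. The study's mice with Cre and intact Arpc4 were examined by other methods, not analysed here.

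After quality filters 19863 of 19864 cells remained, 9443 control and 10420 KO, and no barcode was shared by mice. The total per mouse was 5251527 to 11148525 UMIs in controls and 10768644 to 12878691 in KO mice. Clustering without the 8 genes gave 19 clusters, of which 11 with 17031 cells (7794 control, 9237 KO) were named microglia-like from 12 other markers such as C1qa and Csf1r. In these cells the summed microglia markers lay at 42097 to 42864 CPM in controls (UMIs of a gene per 1000000 UMIs on all genes) and 35183 to 39913 CPM in KO mice. Markers of dendritic cells summed to 191 to 211 CPM in controls and 611 to 757 CPM in KO mice, and those of endothelial cells to 5.58 to 7.51 CPM and 54.5 to 109 CPM with Cldn5 and Slco1a4 at 0. Their part in the results below was not tested. KO mouse 1 stood apart, with 1384 CPM of the X-inactivation transcript Xist in microglia-like cells against 3.66 to 13.2 CPM in the other 7 mice, and it supplied 97.4% of the cells of a cluster led by Xist. By the study's methods the control mice were male and a single KO mouse was female, and the study left that mouse out of its single-cell analysis. The labels do not say which mouse it was. All 8 mice enter the main results here, so results are also given without KO mouse 1, the only mouse with high Xist.

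The 8 genes lie on 6 chromosomes of the mouse genome (GRCm38, mm10). Tmem119 and Selplg are neighbours on the minus strand of chromosome 5, at positions 113793729 to 113800516 and 113818536 to 113832644, with 18019 bases and 1 annotated gene between them. Fcrls and Olfml3 both lie on the minus strand of chromosome 3, from 87250758 to 87263738 and from 103722222 to 103738001. Cx3cr1 spans 119901616 to 120069879 on the minus strand of chromosome 9 in the annotation, an interval that holds 3 other genes of the same strand, so that a read in such a stretch could be counted for either gene or dropped. RefSeq windows of 250 bases before to 50 after the annotated start (build GRCm38.p6) were found for 6 of the 8 genes, all but Tmem119 and Selplg. Because the 8 genes moved together between genotypes, the windows were searched on both strands for short motifs. The windows of 4 genes are shown, those of Siglech, of Cx3cr1 as the gene whose promoter drives the Cre, and of Sparc and Cst3 as the pair most correlated across cells, at chr7:55767934-55768233 (plus strand), chr9:120068247-120068546 (minus strand), chr11:55420031-55420330 (minus strand), chr2:148875463-148875762 (minus strand), in this order. Capitals mark the motif CAGAC, a short SMAD-type element, or its reverse complement.
Siglech: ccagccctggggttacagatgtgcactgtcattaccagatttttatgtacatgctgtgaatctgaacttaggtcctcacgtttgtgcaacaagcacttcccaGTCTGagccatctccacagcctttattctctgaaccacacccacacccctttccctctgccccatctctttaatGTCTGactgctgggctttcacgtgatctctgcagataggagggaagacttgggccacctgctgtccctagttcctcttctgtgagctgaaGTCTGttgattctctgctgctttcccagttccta
Cx3cr1: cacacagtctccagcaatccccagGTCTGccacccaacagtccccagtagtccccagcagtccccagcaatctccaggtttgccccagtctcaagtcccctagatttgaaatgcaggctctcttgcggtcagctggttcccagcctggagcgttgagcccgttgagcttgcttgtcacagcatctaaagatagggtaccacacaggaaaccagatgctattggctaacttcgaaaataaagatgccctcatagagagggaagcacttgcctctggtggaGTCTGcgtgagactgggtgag
Sparc: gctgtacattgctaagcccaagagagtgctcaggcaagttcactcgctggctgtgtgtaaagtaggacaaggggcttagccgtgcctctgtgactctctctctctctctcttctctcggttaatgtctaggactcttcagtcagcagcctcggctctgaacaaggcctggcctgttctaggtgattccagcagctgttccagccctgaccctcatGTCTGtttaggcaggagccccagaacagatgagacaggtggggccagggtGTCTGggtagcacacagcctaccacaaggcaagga
Cst3: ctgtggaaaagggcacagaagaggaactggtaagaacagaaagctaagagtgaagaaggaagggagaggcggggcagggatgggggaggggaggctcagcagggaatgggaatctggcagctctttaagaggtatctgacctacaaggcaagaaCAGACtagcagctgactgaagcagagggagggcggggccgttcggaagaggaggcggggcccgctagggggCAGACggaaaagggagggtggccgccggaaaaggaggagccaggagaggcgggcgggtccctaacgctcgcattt
CAGAC was found in 5 of the 6 windows, not in that of Olfml3, and it was also present in 49.6% of all 32851 windows of that length. TATAAA was found in the window of Fcrls and in 13.6% of all windows. No member window held GAGGAAGT (a PU.1-type motif, 3.20% of all windows), GTCTAGAC (a palindrome of the SMAD type, 0.213%), TATTTATA or TAAAAATA (MEF2 type, 1.70% and 2.72%) or GAAANNGAA (IRF type, 8.56%). These matches describe letters in the windows only.

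All 8 homeostatic genes were lower in microglia-like cells of KO mice than of control mice. For each gene every KO mouse lay below every control mouse, and the mean KO level was 44.5% (Tmem119) to 61.5% (Cx3cr1) of the control level. UMIs were summed per mouse over microglia-like cells, scaled to CPM with TMM factors, which set the bulk of genes to a common level, and tested with edgeR's quasi-likelihood test over 12729 genes, with Benjamini-Hochberg adjustment. In bulk sums, fewer cells that hold a transcript and fewer transcripts per cell cannot be told apart. The shares of cells given below depend on the level of a gene too, so they do not separate these either. Arpc4, the deleted gene, was at 237, 216, 225 and 222 CPM in control mice 1 to 4 and at 153, 148, 143 and 138 CPM in KO mice 1 to 4. The groups did not overlap, with means of 225 ± 8.60 and 145 ± 6.47 CPM (SD, n = 4 each) and a log2 change of -0.63 ± 0.0542 (SE, adjusted p = 5.59e-06). Which part of Arpc4 is removed is not given in the sources used here, so remaining 3′ UMIs cannot be read as intact transcripts.

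Among the surface proteins, Tmem119, a transmembrane protein used to tell microglia from other macrophages, was at 700.4, 665, 675 and 702 CPM in control mice 1 to 4 and at 294, 357, 303 and 267 CPM in KO mice 1 to 4. The groups were far apart, and KO mouse 2 was the highest KO mouse. The log2 change was -1.17 ± 0.0808 (SE, adjusted p = 1.20e-06), the largest fall of the 8 genes. Siglech, a sialic acid-binding lectin that signals through the adaptor DAP12, was at 1516, 1375, 1506 and 1469 CPM in the controls and at 411, 770.3, 777 and 679 CPM in the KO mice. KO mouse 1 was the lowest and the other KO mice were close together. Its log2 change was -1.15 ± 0.165 (adjusted p = 2.08e-04). Cx3cr1, the receptor through which microglia sense the neuronal chemokine fractalkine, was at 3673, 3508, 3555 and 3552 CPM in the controls and at 1735, 2332, 2429.7 and 2295 CPM in the KO mice. It fell least, by 0.70 ± 0.0937 on the log2 scale (adjusted p = 1.30e-04), with KO mouse 1 again the lowest. Fcrls, an Fc receptor-like scavenger receptor, was at 1236, 1236, 1225 and 1252 CPM in the controls and at 746, 738, 718 and 655 CPM in the KO mice. Both groups were tight, and here KO mouse 1 was the highest KO mouse. The log2 change was -0.79 ± 0.0535 (adjusted p = 1.02e-06). Selplg, which codes for the P-selectin ligand PSGL-1 and is also used by leukocytes of the blood, was at 1649, 1687, 1571 and 1605 CPM in the controls and at 720.2, 1006, 1063 and 853 CPM in the KO mice. It fell by 0.84 ± 0.106 on the log2 scale (adjusted p = 8.56e-05).

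The 3 genes of secreted proteins were lower in KO mice too. Olfml3, an olfactomedin-like matrix glycoprotein, was at 1004, 994, 1022 and 977 CPM in control mice and at 453, 640.2, 527 and 539.9 CPM in KO mice, a log2 change of -0.89 ± 0.0892 (adjusted p = 1.66e-05). Sparc, a matricellular glycoprotein that binds collagen, was at 1809.8, 1712, 1769 and 1703 CPM in the controls and at 554, 989, 1113 and 956 CPM in the KO mice. KO mouse 1 was far below the other KO mice, and the log2 change was -0.95 ± 0.169 (adjusted p = 8.86e-04). Cst3, which codes for cystatin C, a secreted inhibitor of cysteine cathepsins, was at 50206, 48834, 48557 and 47226 CPM in the controls and at 16274, 27472.5, 26909 and 24179.6 CPM in the KO mice, with a log2 change of -1.04 ± 0.140 (adjusted p = 1.39e-04). Cst3 was the gene with the most UMIs in control microglia-like cells, at 5.04% of all UMIs, and ranked 2 in KO cells at 2.28%. Together the 8 genes made 6.22% of the UMIs of control and 2.88% of those of KO microglia-like cells.

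**Figure D1:**
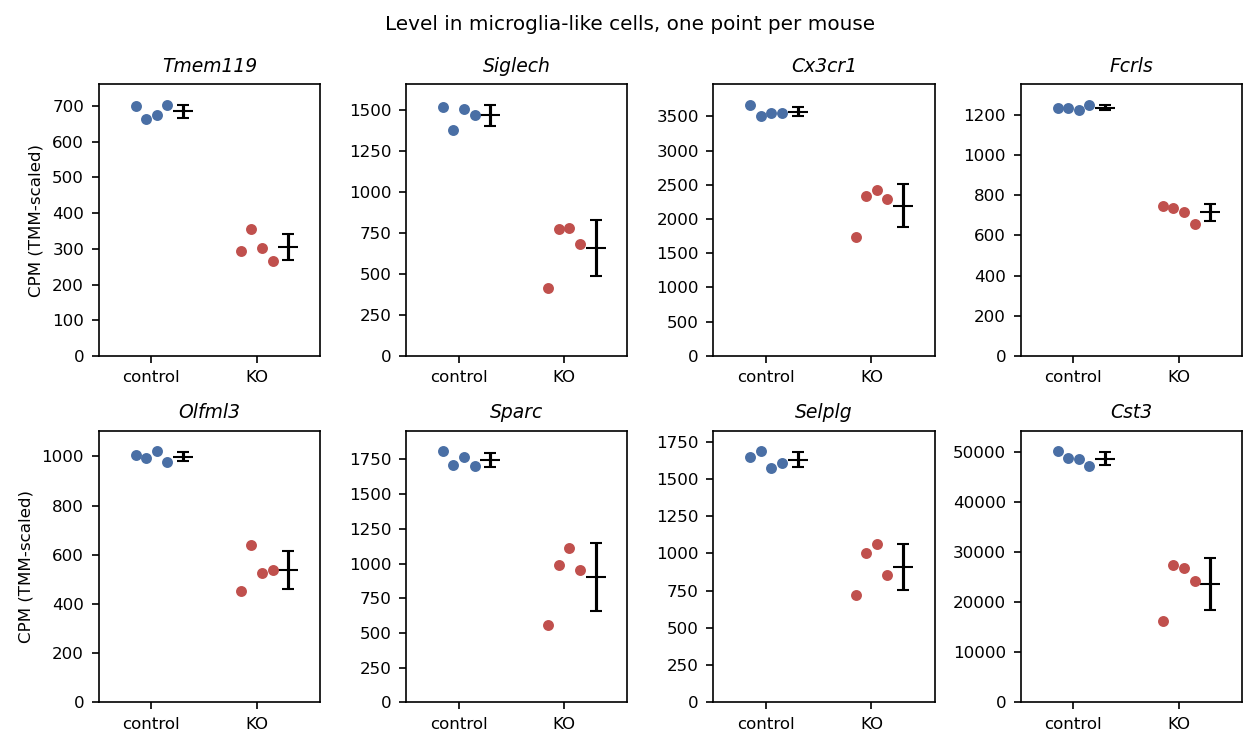
Level of each of the 8 genes in microglia-like cells, in TMM-scaled CPM from 0, with a point for each mouse (blue control, red KO) and the mean with the SD of 4 mice beside it. No control and KO points overlap, and KO mouse 1, the first red point, is the lowest KO mouse for 6 of the 8 genes, not for Tmem119 and Fcrls.

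Thus 8 of 8 genes passed the test as lower, where 23.1% of the 12729 genes tested did, and 8 of 8 had all KO mice below all control mice, where 22.2% of genes did and 44.1% did not overlap in either direction. Their median log2 change was -0.92, beside -0.01 over all genes tested. Without KO mouse 1 the changes were -1.15 for Tmem119, -0.98 for Siglech, -0.60 for Cx3cr1, -0.81 for Fcrls and Olfml3, -0.77 for Sparc, -0.74 for Selplg and -0.89 for Cst3, and all 8 passed. Of all genes tested 46% were called in either direction, 2910 higher and 2946 lower. With library totals in place of TMM factors it was 2248 higher and 4272 lower, since that scaling moved the median of all genes to -0.11, and the 8 genes then changed by -1.27 (Tmem119) to -0.81 (Cx3cr1).

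Free RNA in the suspension held these transcripts too. In 1769098 barcodes with at most 100 UMIs, Cst3 was at 49422 CPM, Cx3cr1 at 1724 CPM and Tmem119 at 542 CPM of gene UMIs. Relative to KO microglia-like cells, the level in free RNA was 81.5% for Cx3cr1 and 116% (Siglech) to 216% (Cst3) for the other genes. With a free RNA share of 25% subtracted from every sum, all 8 genes passed as lower in KO mice, with log2 changes of -1.72 (Cst3) to -0.81 (Cx3cr1). The same profile and share was taken from both genotypes, which can only enlarge a fall. Whether free RNA differed between genotypes was not tested by it.

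A further 32 genes that mark homeostatic microglia were read for comparison, from a list drawn up with the paper and earlier results of these data at hand. Of these, 25 were lower in KO mice, 2 were higher and 5 did not pass, with a median log2 change of -0.77. The lowest was the lens crystallin gene Crybb1 at -2.97 ± 0.163 (SE, adjusted p = 3.18e-07). The 2 higher genes were C1qa, a chain of complement C1q, at 0.28 ± 0.0819 (adjusted p = 0.0164), and the cathepsin gene Ctss at 0.59 ± 0.0830 (adjusted p = 1.75e-04). Those that did not pass included Tgfbr1, Mertk, Plxdc2 and Trem2.

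Across 33 sums of 6 cell classes, the genes of 3917 whose level followed the 8 genes most closely included Gpr34 (mean Pearson r = 0.886), Epb41l2 (0.873), Frmd4a (0.871) and Lpcat2 (0.870). These sums share mice and differ mainly by cell class, so the correlations are a description. In microglia-like cells these 4 genes changed by -1.20, -0.42, -0.31 and -0.31 on the log2 scale between genotypes. Among the 8 genes themselves Fcrls and Selplg were the least alike (r = 0.292). In controls, Fcrls had a mean of 1064 CPM of gene UMIs in CAM-like and 467 CPM in T cell-like cells, while Selplg had 288 CPM and 861 CPM.

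A UMI of these genes, other than Cst3, was found in a smaller share of KO than of control cells. Cells were thinned to 2000 UMIs each to equal their depth, which left out 288 control and 329 KO microglia-like cells. Tmem119 was found with at least 1 UMI in 71.9, 73.1, 73.0 and 74.3% of the cells of control mice 1 to 4 and in 40.7, 46.9, 41.3 and 37.6% of those of KO mice 1 to 4. Its means were 73.1% ± 0.963 and 41.6% ± 3.87 (SD, n = 4 each), a difference of -31.4 percentage points. This was the largest fall in the share of cells with a detected UMI among the 8 genes. For Siglech the means were 91.7% ± 1.30 and 62.2% ± 10.4, with 47.2% in KO mouse 1 and 63.5 to 70.4% in the other KO mice. Sparc was found in 94.6% ± 0.635 of control and 67.6% ± 10.3 of KO cells, Olfml3 in 83.1% ± 0.826 and 58.9% ± 5.35, Selplg in 93.8% ± 0.530 and 74.6% ± 5.76, and Fcrls in 84.4% ± 1.59 and 65.8% ± 2.93. For these genes a UMI was still found in most KO cells. Cx3cr1 was found in 94.6% ± 2.91 of KO cells, beside 99.5% ± 0.239 of control cells, and Cst3 in 100% of cells of both groups. For all genes but Cst3 every KO mouse lay below every control mouse, which held for 26% of the 12729 genes. The exact permutation test over mice (two-sided) gave p = 0.0286 for each of these 7 genes, the smallest that 4 against 4 mice allow.

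The mean UMIs per positive cell, given as a description, went from 2.02 to 1.46 UMIs for Tmem119 (ratio 0.719) and from 107 to 47.3 UMIs for Cst3 (ratio 0.440), with ratios between 0.580 (Cx3cr1) and 0.684 (Olfml3) for the other 6 genes. Both measures depend on the level of a gene: shares of Cst3 and Cx3cr1 were at or near 100% in controls, and Tmem119 was near the floor of 1 UMI per positive cell. Before thinning the pooled shares were 90.0% and 63.8% for Tmem119, and 97.0% and 79.2% for Siglech. In T cell-like cells, which should lack most of these genes, thinned shares in control and KO mice were 26.4% and 10.1% for Tmem119, 38.0% and 23.2% for Siglech, and 95.3% and 94.6% for Cst3, at median depths of 4987 and 4126.5 UMIs. Microglia-like cells had median depths of 3903 and 4363.5 UMIs. The KO shares in microglia-like cells lay above those of T cell-like cells for every gene, while for Cst3 a share of cells cannot separate expression from free RNA.

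**Figure D2:**
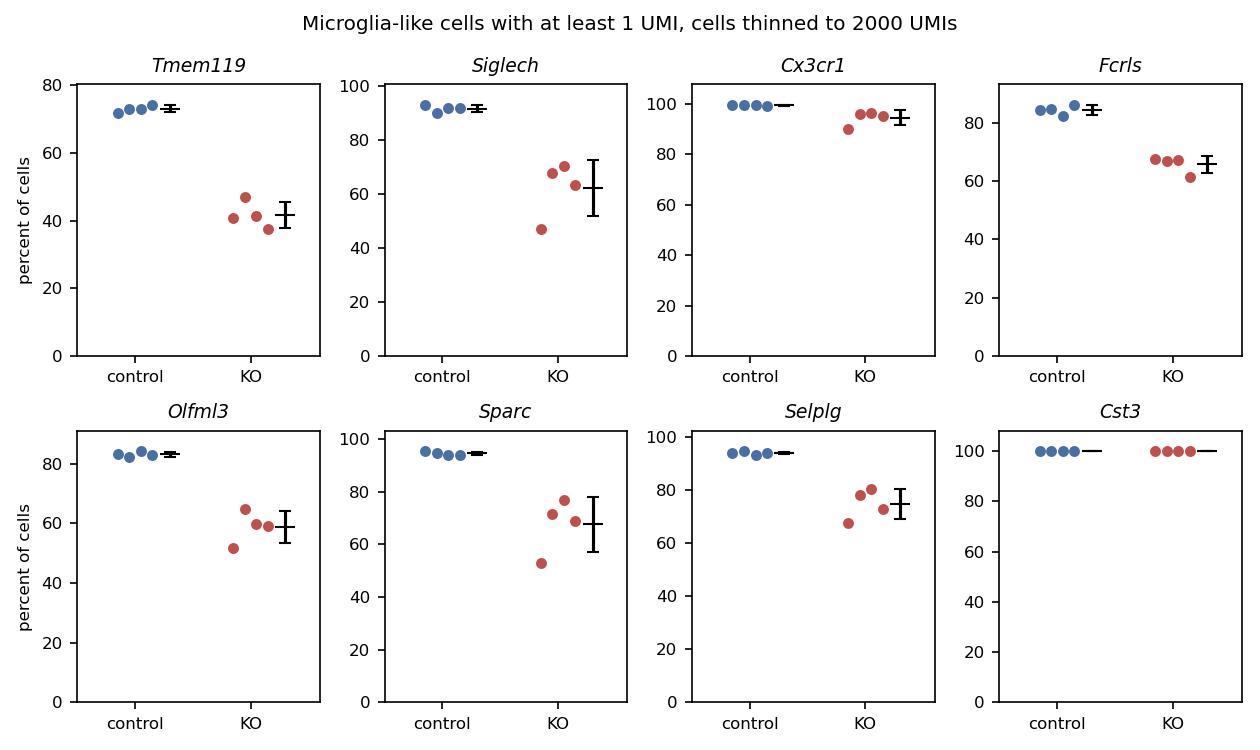
Percent of microglia-like cells with at least 1 UMI of each gene after thinning to 2000 UMIs, from 0, with a point for each mouse (blue control, red KO) and the mean with the SD of 4 mice. The groups are apart for 7 genes, least for Cx3cr1 (99.5% and 94.6%), and Cst3 is at 100% in every mouse.

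Within the microglia-like cells the 8 genes varied by cluster, described here without a test because the clusters come from the same cells. The values are log2 ratios of CPM of gene UMIs to the mean of control microglia-like cells. Control cells fell mainly into clusters 1, 2 and 3, where the median over the 8 genes was -0.16, 0.36 and 0.03. Cluster 2 held the highest levels, with Cst3 at 0.57, yet Siglech was at -0.24 there. The 79 KO cells in cluster 2, from 2 mice, had a median of 0.36, with Tmem119 at 0.91, Sparc at 0.67 and Cx3cr1 at 0.33 above the control mean but Siglech at -0.66. Those in clusters 1 and 3, 101 and 94 cells of 2 mice each, had medians of -0.19 and -0.20. In KO cells of clusters 1, 2 and 3 Arpc4 was at means of 176, 376 (53 UMIs) and 178 CPM of gene UMIs. Control cells of these clusters had 204, 293 and 242 CPM, and all KO microglia-like cells a mean of 140 CPM. Whether the KO cells of clusters 1, 2 and 3 had lost Arpc4 was not tested. In the other 8 clusters all 8 genes were below the control mean in KO cells, with cluster 15 the nearest to it (median -0.61, 172 cells of 2 mice). The few control cells read in these clusters also had medians below that mean. They were -0.54 in cluster 0 and -0.48 in cluster 10 (84 and 101 cells of 4 mice each). In clusters 5, 8 and 11 they were -0.51, -0.26 and -0.69 (29, 26 and 27 cells of 2 mice each). Cluster 6 had -2.07 in 16 control cells of 1 mouse. In cluster 0, the largest with 2994 KO cells, the median was -0.97, and Tmem119 was lowest at -1.32. In cluster 6, led by haemoglobin genes and Ms4a7, the median was -2.0, Sparc was at -3.68 and Selplg at -2.40, and in CPM of gene UMIs Sparc was at a mean of 141 ± 38.9.

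Other KO clusters differed in which gene was lowest. Clusters 5 and 11, both led by the cystatin F gene Cst7 of reactive microglia, had medians of -0.74 and -0.68 with Siglech lowest at -1.52 and -1.89, while Olfml3 in cluster 11 was at -0.35. Cluster 8, led by the interferon-induced genes Cxcl10 and Ifit3, had a median of -1.16 and a narrow range of -1.32 (Siglech) to -0.86 (Selplg). Cluster 10, led by the chemokine genes Ccl4 and Ccl3, held cells of both genotypes. Its 101 control cells had Selplg at -1.41, Siglech at -1.15 and Tmem119 at -1.11 but Cst3 at -0.09, and its 391 KO cells had Tmem119 at -2.31 and Cst3 at -1.28. Cluster 4, of which 97.4% came from KO mouse 1, had a median of -1.35. That value weighs 3 KO mice equally, so those with few cells there count as much as KO mouse 1.

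**Figure D3:**
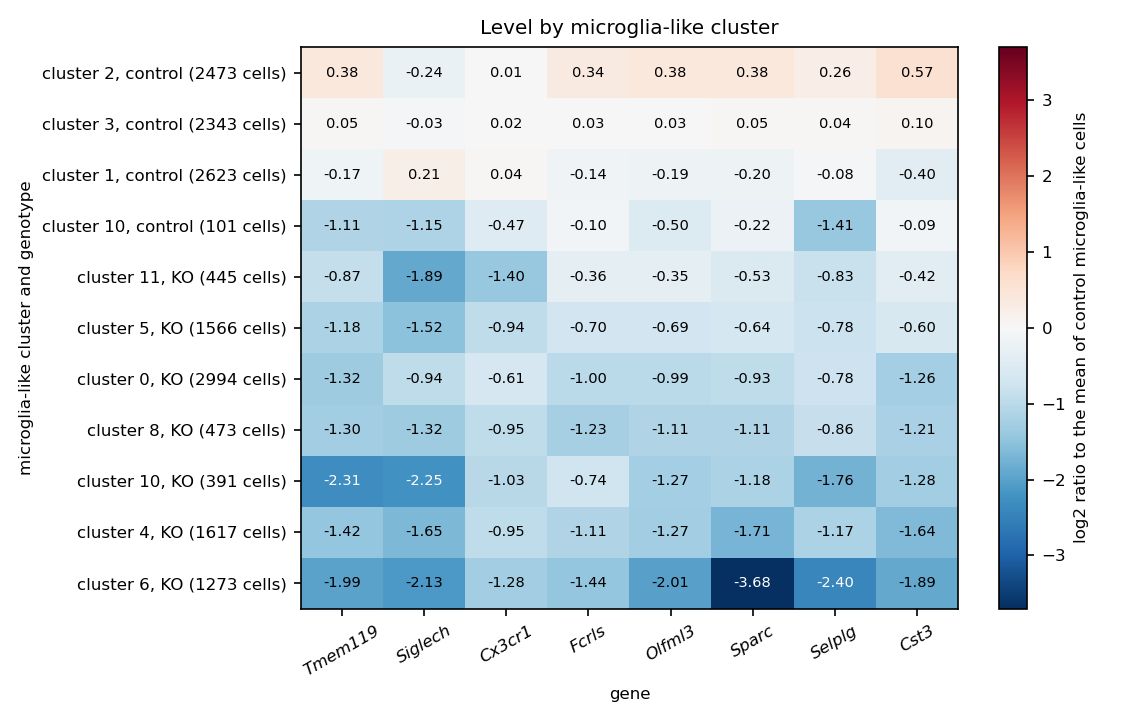
Log2 ratio of the mean CPM per mouse in each microglia-like cluster to the mean of control microglia-like cells, for the 8 genes in columns and clusters split by genotype in rows, with red above and blue below the control mean. Cluster 6 of KO cells is the darkest row, with Sparc at -3.68, and Siglech is the lowest gene in clusters 5, 8 and 11.

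Among KO microglia-like cells, those with an Ms4a7 UMI had lower levels of all 8 genes in all 4 KO mice. Ms4a7, a membrane protein typical of CAMs, rose in KO microglia-like cells from 21.3 ± 12.8 to 268 ± 62.9 CPM (SD, n = 4 each), a log2 change of 3.60 ± 0.336 (SE, adjusted p = 9.99e-06). Thinned KO cells were split into the 519, 421, 312 and 524 cells of KO mice 1 to 4 with an Ms4a7 UMI, 13.4 to 24.5% of the cells, and those without. Cells with Ms4a7 had fewer UMIs before thinning, with medians of 3235 to 3963 against 4163.5 to 4716. The part of free RNA in this split was not tested.

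The gene that differed most was Sparc. It was at 591, 1109.6, 1186 and 1021 CPM in the cells without Ms4a7 of KO mice 1 to 4 and at 227, 358, 385 and 371 CPM in those with it, a log2 difference of -1.55 ± 0.211 (edgeR, adjusted p = 9.73e-04). No cell group with Ms4a7 reached the lowest without it. Selplg was at 768, 1113, 1096 and 921 CPM without and at 421, 444, 575 and 433 CPM with Ms4a7, also with no overlap, a difference of -1.06 ± 0.134 (adjusted p = 5.71e-04). Olfml3 (-0.78 ± 0.134, adjusted p = 0.00432), Tmem119 (-0.63 ± 0.12, adjusted p = 0.00843), Fcrls (-0.47 ± 0.104, adjusted p = 0.0206) and Cst3 (-0.64 ± 0.165, adjusted p = 0.0416) passed as well. Siglech at -0.63 ± 0.221 (adjusted p = 0.129) and Cx3cr1 at -0.38 ± 0.132 (adjusted p = 0.124) did not.

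So 6 of the 8 genes passed as lower, where 2.58% of 10385 genes tested did (5.83% in either direction), and 8 of 8 were lower in all 4 mice, where 16.1% of genes were. The median log2 difference of the 8 genes was -0.63, beside 0.00 over all genes. Both kinds of cells come from the same mice. With the mouse as a replicate block all 8 passed, Siglech at -0.61 ± 0.0713 (adjusted p = 5.36e-08) and Cx3cr1 at -0.38 ± 0.0518 (adjusted p = 8.44e-07), and the calls over all genes went from 605 to 1570. Of the other 32 homeostatic genes 11 passed as lower with Ms4a7 and the rest did not pass. Without thinning, 347 genes were called and 4 of the 8 genes passed. Fcrls at -0.22 (adjusted p = 0.156) and Cst3 at -0.51 (adjusted p = 0.177) then did not, and Sparc was at -0.94 (adjusted p = 0.0489). Without a block, leaving out a mouse changed which genes passed. Without KO mouse 1 all 8 passed and 1057 genes were called, without KO mouse 2 the genes were Sparc, Selplg, Olfml3 and Fcrls with 233 genes called, and without KO mouse 3 or KO mouse 4 they were Sparc, Selplg and Olfml3 with 265 and 172 genes called.

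The genotype difference was also found without these cells. In microglia-like cells without an Ms4a7 UMI all 8 genes were lower in KO mice, from -1.06 for Tmem119 and -1.05 for Siglech to -0.64 for Cx3cr1, with Cst3 at -0.94, Sparc at -0.78, Olfml3 at -0.77, Fcrls at -0.74 and Selplg at -0.69, and all passed. Of the 12463 genes tested in these cells 5434 were called, 2739 of them lower.

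**Figure D4:**
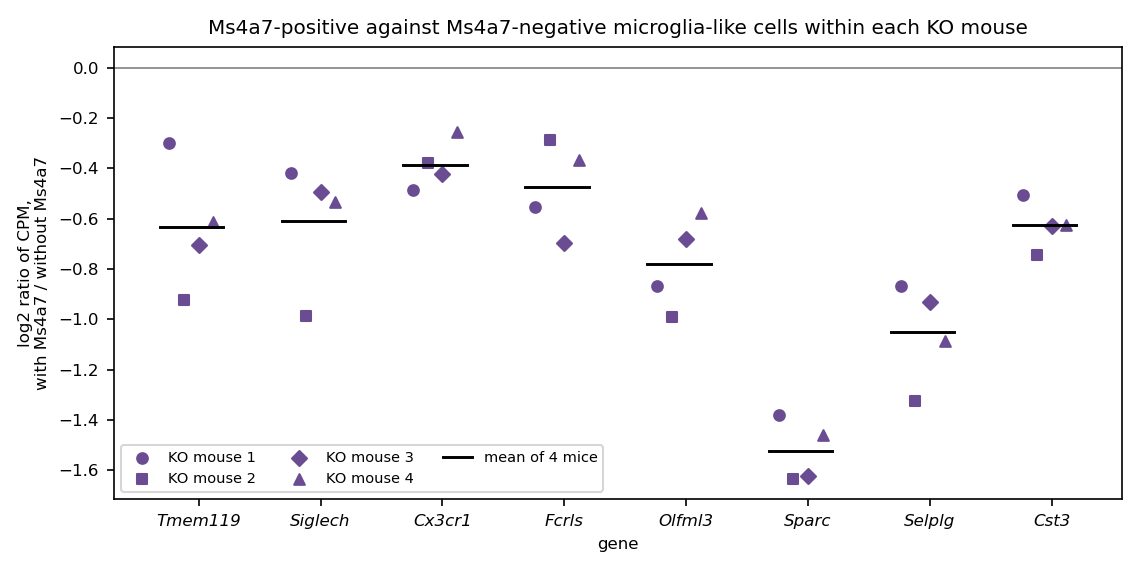
Log2 ratio of CPM in thinned microglia-like cells with an Ms4a7 UMI to that in cells without one, for each gene on the x axis and each KO mouse by symbol, with the mean of 4 mice as a line. All points lie below 0, and those of Sparc are the lowest.

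CAMs are the macrophages of the meninges, the perivascular space and the choroid plexus, and they share the Cx3cr1-driven Cre. Their cluster, led by Pf4, F13a1 and Mrc1, held 289 control and 124 KO cells, 21 to 112 per mouse, with sums of 90559 to 445011 UMIs, far shallower than those of microglia-like cells (4190845 to 11690546 UMIs). Siglech was at 321, 477, 462 and 383 CPM in control mice and at 135, 196, 109 and 177 CPM in KO mice, with no overlap and a log2 change of -1.44 ± 0.245 (edgeR, adjusted p = 0.00609). Olfml3 was at 234, 425, 345 and 249.7 CPM in the controls and at 109.6, 245, 99.7 and 83.1 CPM in the KO mice. Only KO mouse 2 of this group reached into the control range, and the log2 change was -1.28 ± 0.30 (adjusted p = 0.0370). The other 6 genes did not pass. Their estimates were -0.84 for Cx3cr1 (95% interval -1.34 to -0.35, adjusted p = 0.0941), -0.76 for Tmem119 (-1.42 to -0.11, adjusted p = 0.336), -0.53 for Cst3 (-0.94 to -0.13, adjusted p = 0.234), -0.37 for Sparc (-1.08 to 0.35, adjusted p = 0.744), -0.34 for Selplg (-0.87 to 0.19, adjusted p = 0.675) and -0.31 for Fcrls (-0.80 to 0.18, adjusted p = 0.675).

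In CAM-like cells 2 of 8 genes thus passed as lower, where 0.461% of 3468 genes did (1.04% in either direction). Olfml3 lost its call without any 1 mouse but KO mouse 2, whereas Siglech kept it throughout, with adjusted p = 0.00326 to 0.0373. Levels in T cell-like cells, which should lack most of these genes, moved with genotype too. Tmem119 was at a mean of 272 CPM of gene UMIs in control and 107 CPM in KO T cell-like cells. Means there were 528 and 217 CPM for Siglech, 342 and 201 CPM for Olfml3 and 15707 and 8273 CPM for Cst3. Of the 8 genes, 6 had all KO mice below all control mice there, where 8.84% of the 724 genes of at least the level of the lowest of the 8 genes did. On the same scale, CAM-like cells had means of 354 and 133 CPM for Siglech and 270 and 116 CPM for Olfml3. Both genes were thus below their T cell-like levels in each genotype. Neither the part of free RNA nor that of cells of the same mouse captured together was tested, in the T cell-like levels or in the CAM-like calls. With 10% free RNA subtracted from the CAM-like sums, Siglech was at -2.38 (adjusted p = 0.0035) and Olfml3 at -2.64 (adjusted p = 0.0448), both further from 0 than as deposited. Taking the same profile and share from both genotypes always enlarges a fall, so this cannot test free RNA that differs between them. The difference between the genotype changes of CAM-like and microglia-like cells passed for 0 of the 8 genes in edgeR, with adjusted p = 0.397 (Fcrls) to 0.758 (Cx3cr1), where 4.58% of 11107 genes passed in either direction and 3.73% as lower. It also passed for 0 of them at an unadjusted p under 0.05, and for 0 with DESeq2. The widest intervals were those of Sparc, -0.36 to 1.39, and Tmem119, -0.34 to 1.02, on the log2 scale, so that sizeable differences were not detectable at this depth. Arpc4 did differ between these classes. Its change in CAM-like cells was 0.28 ± 0.212 (adjusted p = 0.684), higher than in microglia-like cells by 0.85 ± 0.178 (adjusted p = 0.00533), so the deletion was not visible in these CAM-like sums.

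Across single cells the 8 genes were only loosely correlated, and more so in KO than in control microglia-like cells. Pearson's r of log-transformed counts of cells thinned to 2000 UMIs was computed for the 28 pairs within each mouse, over 966 to 2328 cells that share 1 library and 1 depth, and is given as a description. The median over pairs was 0.0963 in controls (0.0815 to 0.125 over 4 mice) and 0.158 in KO mice (0.134 to 0.195, with 0.149 in KO mouse 1). The mean r was higher in KO mice for all 28 pairs, and for 14 pairs every KO mouse lay above every control mouse. Over all 15400 pairs of the 176 genes with at least the control level of Tmem119, 48.2% had a higher mean r in KO mice and 24.6% had every KO mouse above every control mouse. Pairs share genes and r depends on level, so these shares are a description too. At these low counts the mean r was over 0.1 for 14 of the 28 pairs in controls and for 22 in KO mice. It was below 0 for 3 pairs in controls and for 0 in KO mice. The closest pair in both groups was Sparc and Cst3, with a mean r of 0.313 in controls (0.293 to 0.330) and 0.420 in KO mice (0.358 to 0.501). Cst3 and Siglech had a mean r of -0.0639 in controls and 0.110 in KO mice, and Cst3 and Cx3cr1 of -0.0722 and 0.0608, and neither pair overlapped between groups. Fcrls and Selplg had 0.0681 and 0.0753.

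Within single clusters the median r was smaller for the common clusters. It was 0.0325, 0.0707 and 0.0572 in control cells of clusters 1, 2 and 3 and 0.0640 in KO cells of cluster 0, and it was highest in KO cells of clusters 8 (0.198) and 11 (0.248). Counted per cell, control cells held a mean of 7.20 of the 8 genes and KO cells 5.65. All 8 genes were found together in 44.0% ± 1.17 of control cells and 9.65% ± 3.71 of KO cells (SD, n = 4 each). Independent genes with the same shares would give 41.5% and 5.17%. Cells with 3 or fewer of the genes made 0.253% ± 0.209 of control and 9.72% ± 4.91 of KO cells, with 16.7% in KO mouse 1 and 5.67 to 9.67% in the other KO mice. No cell lacked all 8 genes. The median sum of the 8 genes per thinned cell averaged 124 UMIs in controls and 54.6 UMIs in KO mice.

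**Figure D5:**
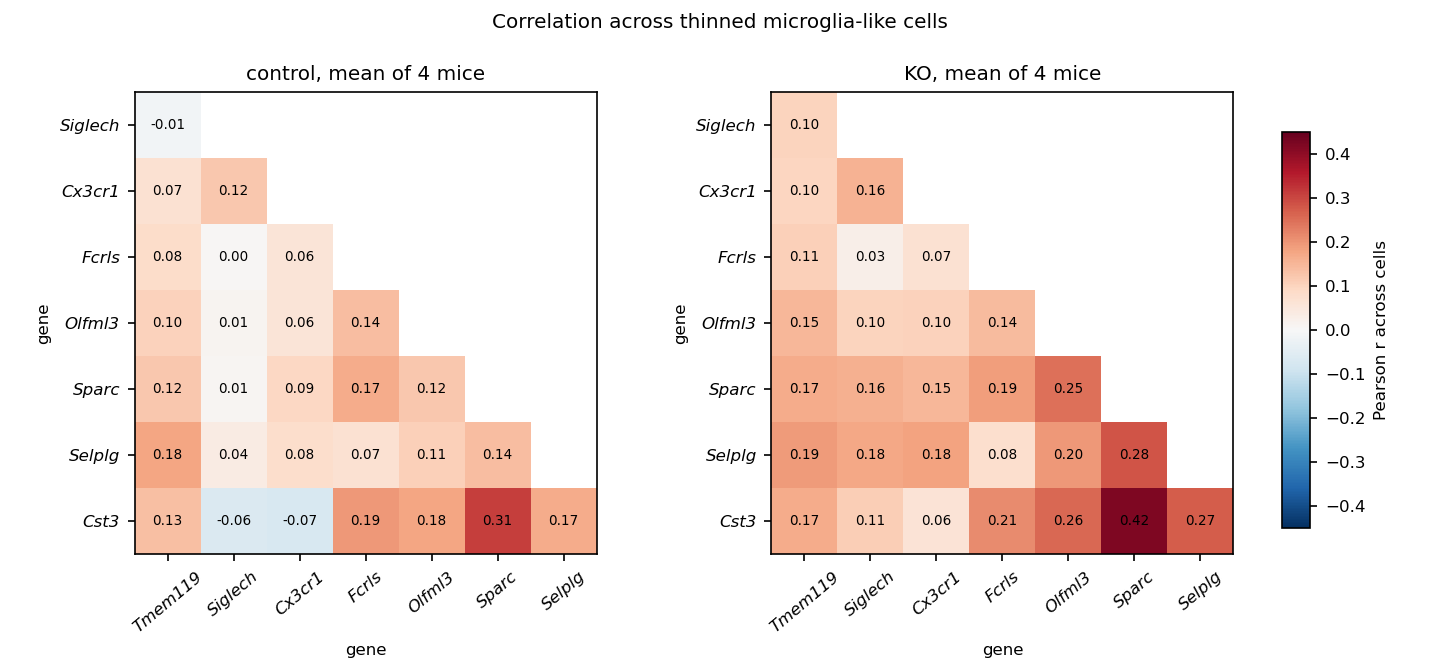
Pearson's r of log-transformed thinned counts across microglia-like cells for each pair of the 8 genes, as the mean of 4 control mice (left) and 4 KO mice (right), with red for positive and blue for negative values. Sparc and Cst3 are the darkest pair in both panels, and the blue pairs of Cst3 with Siglech and Cx3cr1 in controls are positive in KO mice.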

How the data were processed

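The authors aligned reads to mm10 with Cell Ranger (version 6.1.2 per the labels, 7.1.0 per the file headers), matched each cell to a mouse through its tag, and deposited UMI counts that had not been normalized. Barcodes needed 200 genes or more and no more than 20% mitochondrial UMIs. They were clustered with Seurat 5.3.0 (10000 variable genes without the 8 genes, 20 components, 20 neighbours, resolution 0.8) in R 4.3.3. Clusters were named from marker lists without the 8 genes, by limits taken over from earlier work on these data, and 1507 cells of 2 clusters with few UMIs were left unnamed. No doublet caller was run: assignment by tag before deposit removes doublets across mice but not those within a mouse. Counts were summed per mouse and tested with edgeR 4.0.16 (filterByExpr, TMM, quasi-likelihood, adjusted p threshold 0.05). Shares and correlations used cells thinned to 2000 UMIs, and T cell-like shares carry counting error only. Exact permutation tests were run in scipy 1.17.1. DESeq2 1.42.0 was an alternative, with others named in the closing section. The tests were tried on simulated counts.

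Members and lists were chosen with earlier results of these data known. The genes named are the 8 genes, Arpc4, Ms4a7 and the 5 genes most like them in profile, beside genes that lead a cluster or stand at an end of a count, which were named after their values were seen. Some genes of these lists are not reported here. The mice are separate animals, tagged and pooled in 1 library. Mouse numbers of control and KO mice did not pair, since deviations of same-numbered mice correlated at -0.0759 to -0.0104, whereas cells with and without Ms4a7 come from the same mouse. The labels speak of 6 samples where the tags name 8 mice, and all 8 were used.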

Additional observations from a re-analysis of the deposited data

Results flagged for a closer look

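In 70 groups of 4 mice, 3 had a mouse that stood far from the others, with a gap to the nearest mouse, relative to the range, above Dixon's 95% critical value, and chance gives about 1 in 20 such groups. Fcrls was found in 61.5% of thinned microglia-like cells of KO mouse 4 and in 66.9 to 67.7% of those of the other KO mice. Olfml3 in CAM-like cells was at 245 CPM in KO mouse 2 and at 83.1 to 109.6 CPM in the other KO mice. Selplg in microglia-like cells with Ms4a7 was at 575 CPM in KO mouse 3 and at 421 to 444 CPM in the other KO mice.

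The genotype change of Arpc4 differed between cell classes, and was higher in CAM-like than in microglia-like cells by 0.85 on the log2 scale (edgeR, adjusted p = 0.00533).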

How the results depend on the processing

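In microglia-like cells all 152 alternative values of the 8 genes kept their direction and passed. In the Ms4a7 split 48 of 64 values kept direction and side of the threshold, 10 no longer passed and 6 newly passed. In CAM-like cells 87 of 96 did, 7 no longer passed and 2 newly passed, and in the difference between cell classes 95 of 96 did. The genes called in the Ms4a7 split numbered 605, with 995 without a filter on low counts, 347 without thinning and 172 to 1057 when a KO mouse was left out, and 6 of the 8 genes were lower there, with 3 to 8. CAM-like cells gave 36 calls, 125 without a filter and 11 to 64 with a mouse left out, and 2 of the 8 genes lower, with 1 to 3. The difference between classes gave 509 calls, 795 without a filter and 327 to 541 with a mouse left out. Tmem119 in that difference, 0.34 as reported, was -0.40 after subtracting 10% free RNA. The causes were not tested, beside the number of genes tested without a filter and of mice when 1 is left out. For shares of cells, 7 genes passed, and 0 did with any mouse left out, where the smallest exact p is 0.0571.

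With the replicate block, microglia-like cells gave 5523 calls in place of 5856, the Ms4a7 split 1570, and the shares 0 genes, since 4 paired differences cannot give an exact p below 0.125. In the Ms4a7 split Siglech and Cx3cr1 did not pass as reported and passed with the block, which changed no other edgeR call of the 8 genes. They also passed there without KO mouse 1 and without a filter on low counts. CAM-like sums and free RNA limit the depth.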
